A study of Drosophila melanogaster with 16 samples.

Results

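The transcriptional response to food withdrawal was examined in larvae that lack a functional ERK7 kinase. It was described by setting the 4 RNA-seq libraries from fasted *ERK7* mutant larvae against the 4 libraries from fed *ERK7* mutant larvae, so that 8 of the 16 libraries in the series carry the comparison, and 10459 genes were tested. The other 8 libraries, 4 from fed and 4 from fasted control larvae, were used only to show where the mutant response differed. All libraries came from poly(A) RNA of whole male *Drosophila melanogaster* larvae. The mutants carried the allele ERK7 1, a small CRISPR/Cas9 deletion that shifts the reading frame and truncates the kinase. The controls came from another line of the same mutagenesis and screening that had no *ERK7* lesion. Both lines were backcrossed into w1118 and were kept as balanced stocks, so that each genotype is represented by 1 line and a difference between genotypes cannot be told apart from a difference between these lines. Eggs were laid for 3 h, first-instar larvae were picked 24 h later and placed on food at controlled density, and after a further 48 h larvae were moved either to agarose in PBS (fasted) or to fresh food (fed) and collected 6 h later. The number of larvae behind a library is not given in the labels, and the labels do not say whether the replicates were reared apart, so that p-values measure the spread between these samples, which may in part be technical.

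ERK7 is an atypical mitogen-activated protein kinase without a dedicated upstream kinase. A fasted larva stops storing nutrients, releases fatty acids from the triacylglycerol droplets of its fat body, burns them in mitochondria and peroxisomes, and lowers insulin and TOR signaling, which in turn releases the transcription factor FOXO and starts autophagy. The transcription factor sugarbabe (Sug) raises lipogenic genes when dietary sugar is high. Lipid droplets are coated with perilipins, which gate the access of lipases to the stored fat.

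Values are given as the deposited normalized read counts, scaled to a common library size and abbreviated RPM, and differences as log2 of the RPM value plus 1, fasted minus fed, with the standard error (SE) of the limma model. A gene was called where its Benjamini-Hochberg adjusted limma p was under 0.05, and "rose" and "fell" are used only for called genes. Replicate numbers refer to mutant libraries unless controls are named. Library depths were similar, from 19206955 to 20601418 reads in fed mutants, 18648445 to 19594002 in fasted mutants and 16482553 to 20057340 in controls. 1 control library, fed replicate 4, had 213 genes at 0 where the other libraries had 9 to 70. The mutated gene does not serve as a check of genotype, since the lesion is a small deletion that leaves the mRNA countable. *Erk7* was at 5.58, 7.93, 10.2 and 9.24 RPM in the fed mutants and at 7.59, 8.03, 5.14 and 7.88 RPM in the fasted mutants. These groups overlapped, and the difference of -0.17 ± 0.37 (SE, n = 4 and 4) did not pass the test (adjusted p = 0.756). In controls *Erk7* rose by 0.96 (limma adjusted p = 0.0315), without a called difference between the responses. Its level in fed mutants was 1.59 above that in fed controls (limma adjusted p = 0.00235), at means of 8.23 and 2.19 RPM.

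Fasting changed a large part of the transcriptome of the mutants. Of 10459 genes, 2477 (23.7%) rose and 2616 (25%) fell, together 48.7%, with a median difference over all genes of 0.0017 and a median SE of 0.10. The 4 fed and the 4 fasted values did not overlap for 45.8% of all genes. The change was larger than 1 on the log2 scale for 435 of the genes that rose and 341 of those that fell. In controls 37.5% of genes rose and 32.2% fell, together 69.7%, so that fewer genes were called in mutants in both directions. A principal component analysis of the 8 mutant libraries placed 72.38% of the variance on a first component that separated fed from fasted larvae. The second component, with 8.68%, set fasted replicate 3 (23.0) farthest from fasted replicate 4 (-15.8).

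Most of what changed in the mutants also changed in the controls, and by more. Of the genes that rose in mutants, 79.21% also rose in controls, and these made up 50.03% of the genes that rose in controls. Of the genes that fell in mutants, 81.73% also fell in controls, which was 63.44% of those that fell in controls. The 2 contrasts share no library. Across the 10459 genes, which are not independent of each other, the mutant and control differences had a Pearson correlation of 0.70 and a slope of 0.49. Among the 4100 genes called in the same direction in both genotypes, the median size of the change was 0.51 in mutants and 0.76 in controls, and 948 of them changed more in mutants. The test of the difference between the responses called 31.9% of genes, with 18.2% higher in mutants and 13.7% lower. A further 453 genes rose and 413 fell in mutants without being called in controls, and the difference of responses was called for 179 and 166 of these.

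**Figure D1:**
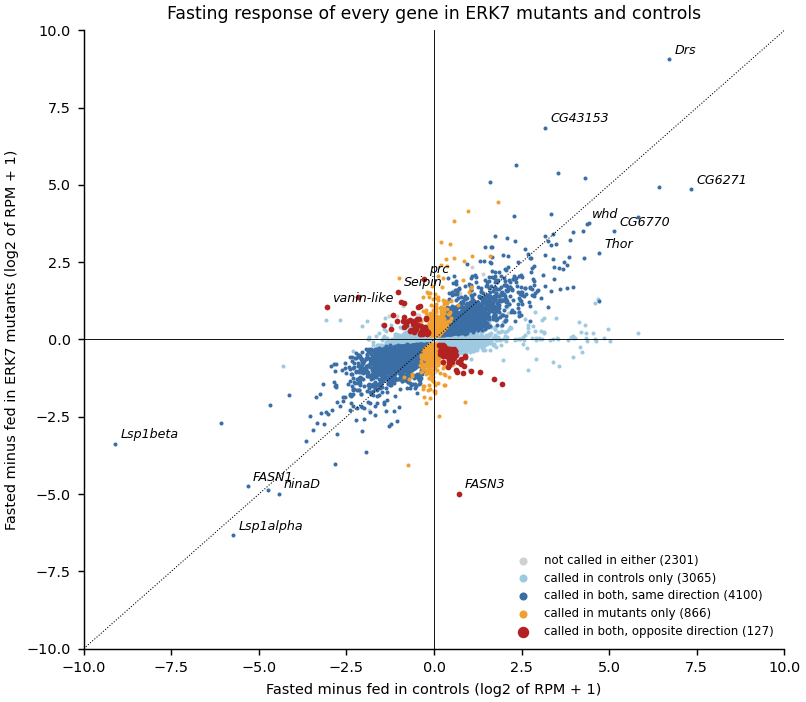
Log2 difference between fasted and fed larvae in controls (horizontal axis) and in *ERK7* mutants (vertical axis), 1 point a gene, with the colour giving the genotypes in which the gene was called and a dotted line of equal change. Of the 10459 genes, 4100 were called in the same direction in both genotypes, 3065 in controls only, 866 in mutants only and 127 in opposite directions, and the cloud is flatter than the dotted line, with a slope of 0.49.

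The genes that rose most in fasted mutants included lipases, enzymes of fatty acid activation and uptake into mitochondria, and immune peptides. The 12 genes with the largest rise, among those above the median level whose groups did not overlap, were *Drs*, *CG43153*, *CG8160*, *CG6271*, *SPH93*, *CG9780*, *Sirup*, *Lip3*, *whd*, *CG6770*, *pdgy* and *Amyrel*, with differences from 9.06 for *Drs* to 3.48 for *Amyrel*. All 12 also rose in controls. *CG43153* moved from 1.91 ± 0.564 to 391 ± 239 RPM (mean ± SD, n = 4), a difference of 6.85 in mutants against 3.17 in controls, and the responses differed by 3.68. *CG8160* moved from 7.79 ± 3.07 to 377 ± 158 RPM, and *CG9780* from 5.06 ± 2.04 to 94.5 ± 23.1 RPM. *Sirup*, a mitochondrial factor for succinate dehydrogenase assembly known to be induced by starvation, rose from 29.7 ± 10.2 to 468 ± 126 RPM. The 12 genes with the largest fall were *Lsp1alpha*, *ninaD*, *FASN1*, *CG14258*, *CG17752*, *Lsp1beta*, *AcCoAS*, *Lcp2*, *ACC*, *CG31091*, *TwdlP* and *Zw*, with differences from -6.34 to -2.71. Among these are lipogenic enzymes, larval serum proteins and cuticle proteins. *ninaD*, which encodes a scavenger receptor for the uptake of dietary carotenoids, fell 34.6-fold, from 374 ± 37.8 to 10.8 ± 1.35 RPM, with every fasted library far below every fed one. *CG14258* fell from 189 ± 35.3 to 11.1 ± 4.27 RPM, *CG17752* from 185 ± 12.0 to 18.2 ± 12.8 RPM and *CG31091* from 96.6 ± 19.4 to 12.9 ± 2.93 RPM.

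Genes for the oxidation of fatty acids were induced without ERK7. Of 21 measured genes of beta-oxidation, 12 rose and 2 fell in mutants, and 12 rose and 4 fell in controls. The median was 0.66 in mutants, against 0.0017 over all genes, and 0.34 in controls. With a pseudocount of 0.1 or the tests on reads the mutant median was 0.83 to 0.87. The median of the gene-by-gene difference between the responses was -0.02, called higher in mutants for 4 genes and lower for 1. *whd*, on chromosome arm 2R at 10469473 to 10478567 in the release 6 assembly, encodes the carnitine palmitoyltransferase that carries fatty acids into mitochondria. It was at 35.8, 35.8, 36.4 and 42.5 RPM in fed mutants and at 365, 544, 588 and 603 RPM in fasted mutants. The groups lay far apart, and the rise was 14.0-fold, or 3.74 ± 0.14 (SE; limma adjusted p = 3.2e-10), against 4.36 in controls. The difference of -0.61 between the responses was called (adjusted p = 0.0321), but lost its call without control fed replicate 3 or 4, without fed mutant replicate 4, or without control fasted replicate 2, 3 or 4 (adjusted p from 0.0547 to 0.0677). *CG12262*, an acyl-CoA dehydrogenase of the mitochondrial cycle, went from 191, 188, 173 and 181 RPM to 1287, 2070, 1839 and 1661 RPM, a rise of 3.20 in mutants and 3.25 in controls. The acetyl-CoA acyltransferase *yip2* rose by 1.98 and *Thiolase*, a subunit of the trifunctional protein, by 1.39, against 2.34 and 1.34 in controls. *pdgy*, an acyl-CoA synthetase that activates fatty acids, rose by 3.50 and is annotated with an overlapping gene on the same strand. The peroxisomal acyl-CoA oxidases *Acox57D-p* (99.6 ± 11.0 to 571 ± 173 RPM) and *Acox57D-d* (54.3 ± 4.85 to 162 ± 55.5 RPM) rose by 2.46 and 1.48, and *Acox57D-d* was not called in controls (0.04), with a difference of 1.45 between the responses. In fed mutants *Acox57D-d* was below its level in fed controls, with a difference of -0.94. *CG3902*, a branched-chain acyl-CoA dehydrogenase, was 1 of the 2 that fell, by 1.47 in mutants and by 1.81 in controls.

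Lipases were induced in the mutants, but by less than in controls. Of 23 measured lipases, 15 rose and 1 fell in mutants, with a median of 0.62, while 20 rose in controls with a median of 1.57. The response was called lower in mutants for 10 of the 23 and higher for 1. *Lip3*, a secreted lipase known as a starvation marker and target of FOXO, went from 54.5, 74.9, 28.9 and 49.5 RPM to 764, 671, 528 and 813 RPM. Every fasted library was above every fed one, and the rise of 3.77 ± 0.56 compared with 4.43 in controls, without a called difference between the responses. *bmm*, which encodes the fat body triacylglycerol lipase Brummer, was at 43.8, 50.6, 30.6 and 46.0 RPM in fed mutants and at 112, 190, 113 and 105 RPM in fasted ones. It rose by 1.56 ± 0.18 (limma adjusted p = 6.11e-06), less than the 3.33 of controls, with a difference between responses of -1.77. *CG6271*, a member of the pancreatic-type lipase family on chromosome arm 3R at 27024968 to 27026109, went from 19.1, 7.27, 23.1 and 18.4 RPM to 705, 500, 384 and 395 RPM. Its rise of 4.85 differed from that of controls by -2.47, and its level in fed mutants was 1.65 above that in fed controls. The related *CG6277* rose by 1.23 in mutants against 4.70 in controls, and it too was higher in fed mutants than in fed controls, by 2.48. *Lip4* rose by 1.69, *CG5966* by 3.34 and the hormone-sensitive lipase gene *Hsl* by 0.64. The 1 lipase that fell was *mag*, the gut lipase magro, from 995 ± 176 to 661 ± 39.7 RPM (-0.57, adjusted p = 0.0189). It had risen in controls by 0.89, and without fed mutant replicate 4 the fall was -0.50 and lost its call (adjusted p = 0.0577). Its level in fed mutants was 1.5 above that in fed controls, while the fasted means were 661 RPM in mutants and 658 RPM in controls.

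**Figure D2:**
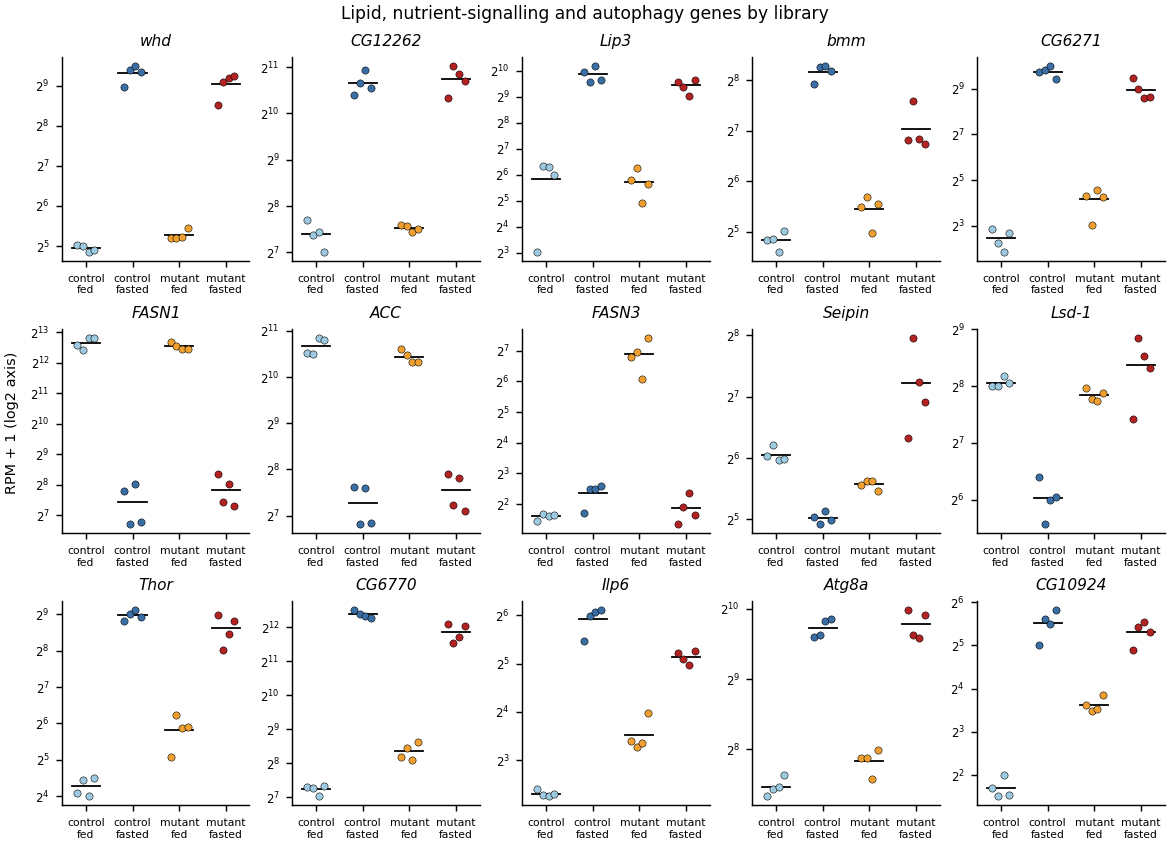
Levels of 15 metabolic and nutrient-signaling genes in control fed, control fasted, mutant fed and mutant fasted libraries, on a log2 axis of RPM plus 1, with 1 point a library and a line at the mean of 4. *whd* and *CG12262* reached similar levels in fasted larvae of both genotypes, *bmm* and *Ilp6* rose less in mutants, and *Seipin* and *Lsd-1* in fasted mutants lay above their level in fasted controls.

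Most genes of fatty acid synthesis fell in fasted mutants, as in fasted controls. Of 12 measured genes, 9 fell and 1 rose, the latter without a call when fed replicate 3 or 4 or fasted replicate 2 or 3 was left out (0 genes). The medians were -2.08 in mutants and -1.66 in controls, but the median of the gene-by-gene difference between the responses was 0.17. That difference was called higher in mutants for 3 of the 12 and lower for 1. *FASN1*, the fatty acid synthase of the fat body, on chromosome arm 2L at 3056598 to 3068177, was at 6604, 5962, 5591 and 5652 RPM in fed mutants and at 324, 174, 261 and 157 RPM in fasted mutants. It fell 26.0-fold (-4.75 ± 0.28, limma adjusted p = 7.97e-09), with -5.32 in controls and no called difference between the responses. *ACC*, acetyl-CoA carboxylase, which makes the malonyl-CoA used by the synthase, fell from 1386 ± 125 to 188 ± 51.7 RPM (-2.92). *ATPCL*, ATP citrate lyase, fell from 899 ± 92.3 to 173 ± 40.7 RPM (-2.39 against -3.21 in controls, a called difference of 0.82), and *AcCoAS*, acetyl-CoA synthase, from 513 ± 28.6 to 61.9 ± 10.6 RPM (-3.05). The enzymes that supply NADPH fell with them. *Zw*, glucose-6-phosphate dehydrogenase, fell by 2.71 on the log2 scale against -3.34 in controls, a difference of 0.64 that was called except with quantile-normalized libraries (0.51, adjusted p = 0.0584). *Pgd*, 6-phosphogluconate dehydrogenase, fell by 1.77 against 3.27 in controls, a difference of 1.5 between the responses.

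*FASN3*, a fatty acid synthase known from oenocytes, the hydrocarbon-producing cells under the cuticle, fell only in mutants. It was at 109, 123, 66.5 and 168 RPM in fed mutants and at 1.56, 2.79, 4.12 and 2.13 RPM in fasted mutants, a 44.0-fold fall with no overlap. In controls it lay between 1.73 and 2.22 RPM when fed and between 2.27 and 4.99 RPM when fasted, and rose by 0.72. The fall in mutants brought it from a fed level that was 5.21 above that of fed controls to values that overlapped those of fasted controls, with a difference between the responses of -5.70. The elongases and acyl-CoA synthetases moved both ways, with 5 of 24 higher (20.83%) and 9 lower (37.5%), against 23.7% and 25% over all genes. *CG4500*, a predicted acyl-CoA synthetase, rose by 3.34 and *CG18609*, an elongase-family gene, by 1.9. The elongase *Baldspot* fell by 1.18, the elongase-family gene *CG8534* (-1.17) and *CG4830* (-1.81), listed with the acyl-CoA synthetases, fell, and *CG4830* fell by 4.13 in controls, a difference of 2.32. The acyl-CoA synthetase *bgm* was 0.33 lower in fasted mutants (adjusted p = 0.0232), but lost its call without fed replicate 1 or 2 or without fasted replicate 1 or 4 (adjusted p from 0.0627 to 0.0762). The elongase-family genes *CG9459* (-0.24, adjusted p = 0.117) and *Elo68beta* (-0.53, adjusted p = 0.0524) did not pass the test, although *CG9459* did without fed replicate 3 (adjusted p = 0.0432), and *Elo68beta* did without fed replicate 3 (0.0118) or fasted replicate 1 (0.0375), with quantile-normalized (0.0382) or median-centred libraries (0.0487), in a fit to the 8 mutant libraries alone (0.0453) and with a replicate block (0.0235).

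*Seipin* was the 1 gene of triacylglycerol synthesis and storage called in opposite directions in mutants and controls. *Seipin*, on the X chromosome at 2619799 to 2622140, encodes an endoplasmic reticulum protein needed to form lipid droplets of normal size. It was at 45.9, 48.1, 48.4 and 43.3 RPM in fed mutants and at 78.9, 246, 149 and 120 RPM in fasted mutants, so that all fasted libraries were higher, over a wide range. It rose by 1.54 ± 0.23 (limma adjusted p = 5.59e-05) in mutants and fell by 1.03 in controls, from between 61.4 and 73.5 to between 29.4 and 34.3 RPM, and the responses differed by 2.57. *Lsd-1*, the perilipin that recruits lipases to the droplet, was at 250, 217, 211 and 234 RPM in fed mutants and at 170, 457, 367 and 318 RPM in fasted ones. Fasted replicate 1 lay below all fed libraries and the other 3 above them, and the difference of 0.44 ± 0.23 did not pass the test (adjusted p = 0.137). Without that library it was 0.73 (adjusted p = 0.00208), and DESeq2 called it with all libraries at 0.53 (adjusted p = 0.0336). In controls *Lsd-1* fell by 2.05, to between 46.6 and 83.6 RPM, and the responses differed by 2.49. *Lsd-2*, the perilipin that protects stored fat, rose by 1.10 in mutants, from 141 ± 12.7 to 319 ± 113 RPM, and by 0.71 in controls.

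The enzymes of glycerolipid synthesis were split. Of 15 genes of triacylglycerol synthesis and storage, 5 rose and 5 fell in mutants, 33.33% each, against 23.7% and 25% over all genes. Only 3 fell without fed replicate 1, without fed replicate 2 or without fasted replicate 1. The acylglycerol-phosphate acyltransferase genes *CG4729* (303 ± 12.4 to 179 ± 33.7 RPM) and *CG4753* (316 ± 27.3 to 156 ± 30.7 RPM) fell by 0.77 and 1.03, and the fatty acid binding protein gene *fabp*, which has an overlapping gene on its strand, fell by 1.05. The glycerol-3-phosphate acyltransferase gene *mino* rose by 0.79. Lipin (*Lpin*), which makes diacylglycerol and also shares its strand with an overlapping gene, rose by 0.49. *CG34448*, named with the lipid genes because the study had singled it out on these libraries, was near the detection limit, at means of 0.0256 and 0.0711 RPM. The apolipophorin gene *Rfabg*, which supplies the main lipid carrier of the hemolymph, fell from 18104 ± 842 to 13280 ± 686 RPM (-0.45), but with quantile-normalized libraries it was 0.16 higher in fasted mutants and not called. Several of these lipid genes (*Seipin*, *CG4729*, *ATPCL*, *fabp*, *Lip4*, *Lsd-1*, *bmm*, *Pgd*, *bgm*, *CG4830* and the elongases) were singled out by the study on the same libraries, so their directions are not independent evidence.

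Glycolytic genes fell and several genes of sugar production rose. Of 13 glycolytic genes 10 fell and 2 rose, with a median of -0.57 in mutants and -0.49 in controls. *Gapdh2*, glyceraldehyde-3-phosphate dehydrogenase, fell from 3166 ± 239 to 1226 ± 95.5 RPM, pyruvate kinase (*PyK*) fell by 0.89 and lactate dehydrogenase (*ImpL3*) by 1.22. The hexokinases *Hex-A* and *Hex-C* rose by 0.53 and 0.60, and *Hex-C* fell by 1.06 in controls, a difference of 1.66. In fed mutants *Hex-C* was below its level in fed controls, with a difference of -1.25. Of 13 genes of gluconeogenesis and carbohydrate stores 5 rose and 3 fell. *CG10924*, a phosphoenolpyruvate carboxykinase family gene, went from 11.3, 10.2, 10.6 and 13.4 RPM to 28.7, 41.7, 45.9 and 38.9 RPM. The groups did not overlap, and the rise of 1.67 was smaller than the 3.79 of controls, with a difference of -2.12. Its level in fed mutants was 1.93 above that in fed controls, and the fasted values of the genotypes overlapped. Fructose-bisphosphatase (*fbp*) rose by 1.10 and trehalose-phosphate synthase (*Tps1*), which makes the circulating sugar of insects, by 0.61, while the glycogen branching enzyme gene *AGBE* fell by 0.83. *tobi*, an alpha-glucosidase gene known as a target of insulin-like and adipokinetic signals, rose by 1.09 against 2.73 in controls, a difference of -1.65. It was 1.1 higher in fed mutants than in fed controls. *Amyrel*, an amylase-related gene, rose 11.6-fold, from 37.1, 30.2, 39.9 and 47.3 RPM to 555, 286, 512 and 443 RPM.

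Of 7 measured sugar-sensing genes 2 rose and 3 fell, against 23.7% and 25% over all genes. *sug* was at 17.8, 24.5, 22.0 and 20.8 RPM in fed mutants and at 5.61, 12.3, 21.3 and 13.9 RPM in fasted mutants. The groups overlapped through fasted replicate 3, and the fall of -0.76 ± 0.25 was only just called (adjusted p = 0.0229). It lost its call without fed replicate 2 (-0.69, adjusted p = 0.0607) and in a fit to the 8 mutant libraries alone (adjusted p = 0.069). In controls *sug* fell by 2.54, from between 18 and 22.2 RPM to between 2.3 and 3.28 RPM, and the responses differed by 1.79. The gene overlaps another annotated gene on its strand, so its count is uncertain. *Mondo*, the sugar-sensing partner of Bigmax, fell by 0.32 and *bigmax* rose by 1.30, against a fall of -0.34 and a rise of 1.36 in controls.

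Genes of insulin and TOR signaling changed in fasted mutants, several of them by less than in controls. Of 20 genes of insulin signaling and FOXO output, 10 rose and 6 fell in mutants, and the response was called lower than in controls for 9 and higher for 2. *Thor*, which encodes the translational inhibitor activated by FOXO, was at 32.9, 74.8, 57.7 and 58.7 RPM in fed mutants and at 506, 256, 352 and 448 RPM in fasted mutants. It rose 6.97-fold (2.79 ± 0.23) without overlap, against 4.71 in controls, and was 1.52 higher in fed mutants than in fed controls. *Ilp6*, the insulin-like peptide secreted by the fat body, went from 9.49, 8.74, 9.20 and 14.8 RPM to 36.3, 33.1, 30.4 and 37.1 RPM. Its rise of 1.63 differed from that of controls by -1.96, and it was 1.19 higher in fed mutants than in fed controls. The insulin receptor gene *InR* rose by 1.23 against 2.48 in controls, with a difference of -1.25, and *chico*, the receptor substrate gene, rose by 0.93 and *foxo* by 0.40. The brain insulin-like peptide genes *Ilp3* and *Ilp5* fell by 0.61 and 0.74, and *Ilp3* was not called in controls (0.01). The difference of -0.62 for *Ilp3* was called, but not with quantile-normalized libraries (-0.30, adjusted p = 0.258).

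Of 27 genes of TOR and nutrient-stress signaling 15 rose and 4 fell. *CG6770*, the stress-induced nuclear protein family gene, was among the genes with the largest rises, from 289, 350, 273 and 397 RPM to 4390, 2960, 3323 and 4234 RPM, 11.4-fold (3.50 ± 0.14). It rose by 5.14 in controls, and the responses differed by -1.63. Its level in fed mutants was 1.11 above that in fed controls. *Rheb*, the GTPase that activates TOR, rose by 1.38, *Sesn* (with an overlapping gene on its strand), a TOR inhibitor, by 0.75, *unk* by 1.16 and *S6k* by 0.31, while *Tor* itself fell by 0.31. *REPTOR*, a transcription factor released when TOR is inactive, was at 34.2 ± 2.97 and 37.9 ± 5.17 RPM in fed and fasted mutants (0.14, adjusted p = 0.339), while it rose by 1.34 in controls, and the responses differed by -1.21. Spargel (*srl*), the coactivator of mitochondrial and ribosomal genes downstream of insulin, fell by 0.60 in mutants and by 2.08 in controls, a difference of 1.48.

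Autophagy genes rose together. Of 22 measured genes 16 rose and none fell, with a median of 0.46 in mutants and 1.07 in controls, and the response was called lower in mutants for 9. *Atg8a*, whose lipidated product coats the autophagosome, was at 233, 233, 190 and 254 RPM in fed mutants and at 1008, 789, 766 and 963 RPM in fasted mutants. It rose 3.88-fold (1.95 ± 0.11), compared with 2.26 in controls, without a called difference. *Atg1*, the initiating kinase, rose by 0.45, its partner *Atg101* by 1.36, the membrane carrier *Atg9* by 1.2 and the cargo receptor *ref(2)P* by 1.07.

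The protein synthesis machinery behaved differently in its parts. Of 38 ribosome biogenesis genes, 15 fell and 3 rose in mutants, with a median of -0.21, whereas 35 fell in controls with a median of -1.33, and the difference between the responses was called higher in mutants for 34 and lower for none. These genes were already low in fed mutants: 35 of the 38 were lower than in fed controls, where 26% of all genes were, with a median of -1.2. *Fib*, the fibrillarin gene of nucleolar RNA methylation, was at 57.8, 50.2, 51.5 and 43.2 RPM in fed and 54.2, 50.2, 61.4 and 50.8 RPM in fasted mutants, which overlapped (0.10, adjusted p = 0.403). Control libraries lay between 175 and 203 RPM when fed and between 55.4 and 62.5 RPM when fasted, so the fasted levels of the genotypes overlapped, and the responses differed by 1.75. The nucleolar genes *Nop56*, *mod* and the helicase gene *pit* fell by 0.59, 0.47 and 0.68. *nclb*, a nucleolar gene of ribosomal RNA transcription, was at 41.9 ± 5.39 RPM in fed and 36.5 ± 6.15 RPM in fasted mutants (-0.20, adjusted p = 0.164, and -0.29 with adjusted p = 0.0457 without fasted replicate 3). It fell by 1.51 in controls, and the responses differed by 1.31. The 3 that rose were the large-subunit export and assembly factor genes *Non1*, *Nmd3* and *Ns2*. *Non1* went from 27.3, 25.3, 26.9 and 25.2 RPM to 83.6, 86.6, 88.9 and 74.6 RPM, by 1.63 in mutants and 1.72 in controls.

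Most cytosolic ribosomal protein genes rose in mutants, while in controls 3 of the 81 rose and 7 fell. In mutants 62 rose and none fell, with a median of 0.38, and 57 of the 62 were not called in controls, where the median was 0.01. The median stayed between 0.37 and 0.41 under the other scalings of the libraries, although leaving out fed replicate 3 gave 0.31, and 1 gene fell without that library or without fasted replicate 4. The difference between the responses was called for 47 genes higher and 1 lower. In fed mutants 73 of these genes were lower than in fed controls, with a median of -0.47. *RpL23A* was at 1074, 1065, 842 and 850 RPM in fed and at 1419, 1306, 1518 and 1204 RPM in fasted mutants, a rise of 0.51 with no overlap, and its count is uncertain because 2 annotated genes overlap it on its strand. *RpL4* rose by 0.56 and *RpS18* by 0.24. Mitochondrial ribosomal protein genes went the other way, with 48 of 66 lower and 1 higher (2 without fasted replicate 1 and 3 without fed replicate 1), a median of -0.48 against -1.17 in controls, and a difference between the responses called higher in mutants for 59 and lower for none. All 66 were lower in fed mutants than in fed controls. Of 31 tRNA synthetase genes 20 fell and 2 rose (1 or 0 when fed replicate 2, 3 or 4 or fasted replicate 1, 2 or 3 was left out), and of 51 translation factor genes 17 rose and 14 fell.

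**Figure D3:**
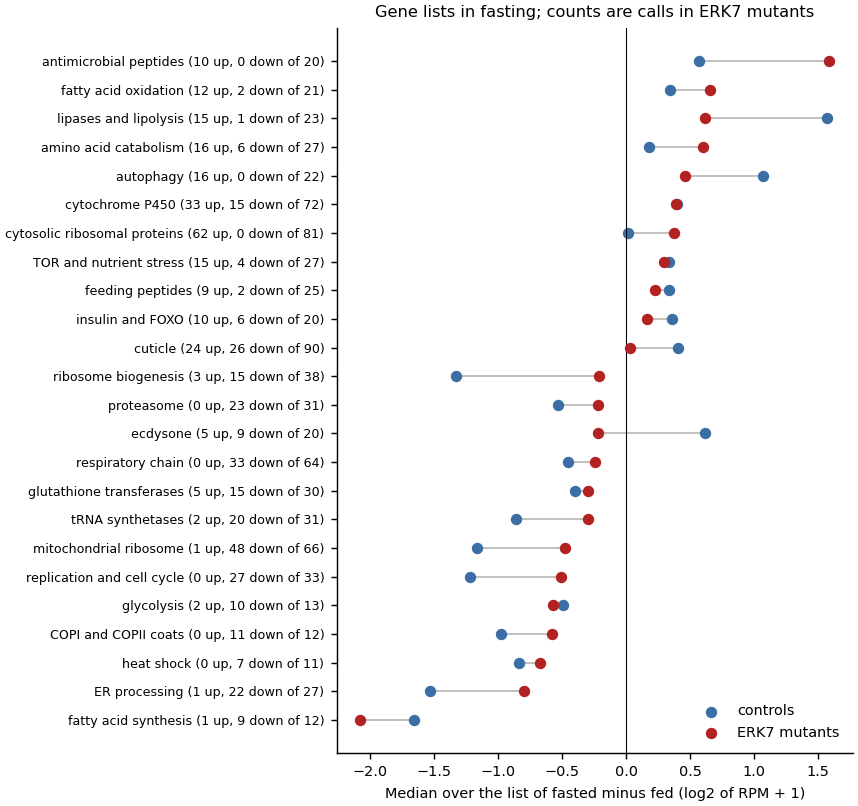
Median log2 difference between fasted and fed larvae for 24 gene lists in *ERK7* mutants (red) and controls (blue), with the number of members that rose and fell in mutants beside each. Ribosome biogenesis lay at -0.21 in mutants and -1.33 in controls, cytosolic ribosomal proteins at 0.38 and 0.01, and autophagy at 0.46 and 1.07, while fatty acid synthesis fell in both, at -2.08 and -1.66. For fatty acid synthesis the median of the gene-by-gene difference, not drawn, was 0.17.

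Genes of the secretory pathway, the proteasome and DNA replication mostly fell. Of 27 genes of protein translocation and folding in the endoplasmic reticulum, 22 fell and 1 rose (0 without fasted replicate 3), with a median of -0.80 against -1.53 in controls. The translocon gene *Sec61alpha* fell from 1393 ± 80.8 to 459 ± 77.4 RPM (-1.61), protein disulfide isomerase (*Pdi*) by 1.46 and the chaperone gene *Hsc70-3* by 0.98, against -2.62 in controls, a difference of 1.64. Of 12 vesicle coat genes 11 fell and of 31 proteasome genes 23 fell, with none higher and medians of -0.58 and -0.22. Of 64 respiratory chain genes 33 fell, 31 were not called and none rose, with a median of -0.24. Among heat shock genes 7 of 11 fell and none rose. *Hsp83*, the cytosolic chaperone that holds kinases and hormone receptors, was at 1766, 1509, 1683 and 1477 RPM in fed and at 748, 1154, 1153 and 760 RPM in fasted mutants, lower in every fasted library. Its fall of -0.78 ± 0.20 compared with -2.87 in controls, a difference of 2.09. The mitochondrial *Hsp60* fell by 0.85 and the inducible *Hsp68* by 1.28. Of 33 replication and cell cycle genes 27 fell and none rose, with a median of -0.51 against -1.22 in controls. *PCNA*, the sliding clamp of DNA replication, went from 55.4, 49.0, 51.3 and 49.3 RPM to 26.9, 24.9, 23.2 and 23.9 RPM, a fall of -1.02 against -2.15 in controls (difference 1.13), and the ribonucleotide reductase gene *RnrS* fell by 1.24, *CycE* by 0.91 and *Mcm7* by 0.73.

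Of 27 genes of amino acid metabolism, which include steps of both breakdown and synthesis, 16 rose and 6 fell in mutants. The median was 0.60 in mutants and 0.18 in controls, but the median of the gene-by-gene difference between the responses was -0.12, called higher in mutants for 5 genes and lower for 1, and without fasted replicate 3 the median was 0.40. The pathway from phenylalanine and tyrosine to fumarate rose at several steps. *Hn*, phenylalanine hydroxylase, went from 89.8, 99.3, 91.7 and 102 RPM to 489, 447, 461 and 421 RPM, a rise of 2.23 ± 0.09. *hgo*, homogentisate dioxygenase, rose by 2.29, from 38.3, 31.1, 39.9 and 46.7 RPM to 205, 202, 198 and 168 RPM, against 3.67 in controls, a difference of -1.38. It was 0.96 higher in fed mutants than in fed controls. *CG11796*, annotated as a hydroxyphenylpyruvate dioxygenase, rose by 1.91 and fumarylacetoacetase (*Faa*) by 1.87. Sarcosine dehydrogenase (*Sardh*) and glycine N-methyltransferase (*Gnmt*) rose by 1.47 and 1.54. Serine and cysteine synthesis genes rose in mutants without a call in controls: *CG6287*, phosphoglycerate dehydrogenase, by 0.85, *CG11899*, phosphoserine aminotransferase, by 0.92, and *Cbs*, cystathionine beta-synthase, by 1.06. Their differences from the control responses were 1.09, 1.23 and 0.85. All 3 were lower in fed mutants than in fed controls, with differences of -0.7, -1.75 and -0.77. Asparagine synthetase (*AsnS*) fell by 1.31. Among amino acid transporters *path* rose by 0.99 and *CG8785* fell by 1.49.

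Antimicrobial peptide genes stood out, and 1 replicate number stood out among them. Of 20 measured genes of the antimicrobial list 10 rose and none fell (1 without fed replicate 1), with a median of 1.59 in mutants and 0.57 in controls. The response was called higher in mutants for 7 and lower for none. *Drs*, on chromosome arm 3L at 3369556 to 3369942, encodes the antifungal peptide drosomycin and had the largest rise of all 10459 genes. It was at 0.402, 0.354, 0.414 and 0.385 RPM in fed mutants and at 846, 869, 907 and 455 RPM in fasted mutants, a 1980-fold difference of means (9.06 ± 0.40, limma adjusted p = 7.18e-10). Control libraries went from between 0.0528 and 0.517 RPM to between 40.5 and 229 RPM, a rise of 6.71, so that every fasted mutant library lay above every fasted control library. The difference of 2.35 between the responses was called (adjusted p = 0.00572), but not with a pseudocount of 0.1 (1.81, adjusted p = 0.0608) nor with the tests on reads (1.64 and adjusted p = 0.344 by edgeR, 1.63 and 0.103 by DESeq2, 1.56 and 0.748 by limma-voom).

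*IM1*, an immune-induced peptide gene of the Toll pathway, went from 0.805, 0.404, 0.517 and 0.110 RPM to 93.0, 36.9, 254 and 28.1 RPM, a rise of 5.64 ± 0.70 with no overlap. The related *IM2* and *IM14* rose by 5.10 and 3.82, and *CG15068* went from 0 in all fed mutants to 8.76 ± 4.24 RPM. *AttC*, which encodes an attacin against Gram-negative bacteria, was at 3.51, 3.08, 198 and 4.40 RPM in fed mutants and at 23.8, 27.3, 1040 and 17.4 RPM in fasted mutants. *Dpt*, the diptericin gene of the Imd pathway, was at 1.15, 1.21, 111 and 5.94 RPM and then at 2.36, 11.4, 535 and 1.5 RPM. In both genes replicate 3 lay far above the others when fed and when fasted, the groups overlapped, and the differences of 2.35 and 0.98 were not called (adjusted p = 0.189 and 0.655). Without fed replicate 3 *AttC* was called at 3.71 (adjusted p = 0.0253) and *Mtk*, the metchnikowin gene, at 3.16 (adjusted p = 0.0304), against 2.12 (adjusted p = 0.157) with it. With replicate 3 left out of both mutant groups, an alternative chosen after seeing the data, 12 of the 20 genes rose with a median of 1.6, while *Dpt* ranged from -0.73 to 2.26 as single libraries were left out. When genes of low level were not tested only 2 genes of the list were called higher. Among the humoral factors outside these peptides, *SPH93*, a serine protease homolog, rose by 4.07. Over all genes, 2076 rose and 2360 fell with replicate 3 left out of both groups.

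**Figure D4:**
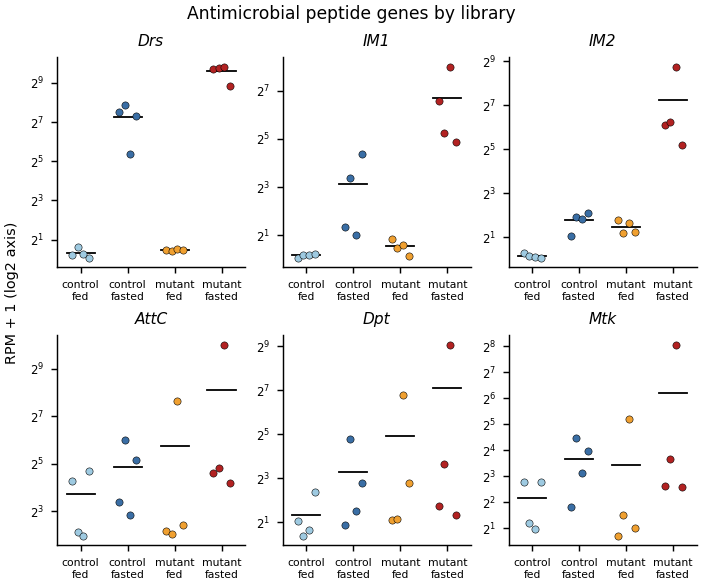
Levels of 6 antimicrobial or immune-induced peptide genes in the 4 groups, on a log2 axis of RPM plus 1, with 1 point a library and a line at the mean of 4. *Drs* and *IM1* in all 4 fasted mutant libraries lay above all 4 fed ones, whereas *AttC*, *Dpt* and *Mtk* show 1 mutant library high in each feeding state, replicate 3, at 198 RPM fed and 1040 RPM fasted for *AttC*.

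Digestive and gut-derived signals were mixed. Of 26 digestive protease genes 11 fell and 3 rose, but 7 fell without fasted replicate 3. *Jon66Cii* and *thetaTry*, proteases of the midgut, fell by 1.81 and 1.68, and *Jon74E* and *alphaTry* rose by 1.15 and 1.03. Of 25 carbohydrase genes 6 rose (24%) and 7 fell (28%), near the 23.7% and 25% over all genes. Their median of -0.16 was -0.33 without fed replicate 1, 0 without fed replicate 2 and 0.03 without fasted replicate 4. The maltase gene *Mal-A8* fell by 2.21. Of 25 genes of feeding and metabolic peptides and their receptors 9 rose and 2 fell, and 3 rose and 1 fell when genes of low level were not tested. *CCHa2*, a nutrient-dependent peptide from fat body and gut that acts on insulin-producing cells, was at 53.0, 46.2, 56.0 and 52.9 RPM in fed and at 21.4, 18.2, 22.1 and 21 RPM in fasted mutants, a fall of -1.29 against -0.99 in controls. *AkhR*, the receptor gene for the lipid-mobilizing adipokinetic hormone, went from 7.36, 6.87, 5.84 and 6.54 RPM to 20.2, 22.1, 17.2 and 18.5 RPM, a rise of 1.42 against 2.02.

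Storage proteins of the larval serum dropped from high fed levels. The larval serum protein gene *Lsp1alpha* was at 12125, 10837, 10723 and 15298 RPM in fed mutants and at 187, 290, 58.9 and 152 RPM in fasted mutants, a 71.1-fold fall. *Lsp1beta* fell 9.79-fold, from 37104, 31661, 28998 and 34594 RPM to 4482, 3893, 1669 and 3475 RPM, and *Lsp1gamma* from 51301 ± 4843 to 11884 ± 2029 RPM. The falls were -6.34, -3.38 and -2.12 in mutants and -5.73, -9.10 and -4.69 in controls. Fed mutants started higher than fed controls, by 6.96, 2.46 and 1.85, and the responses of *Lsp1beta* differed by 5.72. The whole list of 7 measured serum and glue genes summed to between 86632 and 105770 RPM in fed mutants and to between 11140 and 18221 RPM in fasted ones, and the 10 most abundant genes took 27.42 to 29.67% of reads in fed and 23.11 to 26.59% in fasted mutants.

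Stage-linked genes did not move together. Of 20 ecdysone genes 5 rose and 9 fell in mutants, with a median of -0.22, whereas in controls the median was 0.62, and the response was called lower in mutants for 12. When genes of low level were not tested the median in mutants was 0.04, with 3 genes higher and 4 lower. *br*, the broad-complex gene induced by ecdysone, went from 146, 148, 104 and 188 RPM to 34.8, 33.0, 35.6 and 35.1 RPM, a 4.23-fold fall, and *spok*, which acts in ecdysone synthesis, fell by 1.23. *Eip74EF*, an early ecdysone response gene, was at 4.31 ± 0.957 and 3.77 ± 0.72 RPM in fed and fasted mutants (-0.15, adjusted p = 0.772) while it rose by 2.55 in controls, and the responses differed by -2.70. Juvenile hormone esterase (*Jhe*) fell by 1.19. Of 90 cuticle protein genes 24 rose (26.67%) and 26 fell (28.89%), near the 23.7% and 25% over all genes. *Lcp2* fell from 131 ± 32.1 to 15.7 ± 2.89 RPM and *TwdlP* from 185 ± 49.6 to 28.4 ± 13.5 RPM. *Cpr76Bb* rose by 2.37 and *Twdlalpha*, which has an overlapping gene on its strand, by 1.34, neither called in controls, with differences between the responses of 2.01 and 1.30. Both were lower in fed mutants than in fed controls, with differences of -3.91 and -2.06.

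Detoxification enzymes changed in both directions. Of 72 cytochrome P450 genes 33 rose and 15 fell, with medians of 0.39 in mutants and 0.40 in controls. *Cyp4e3* was at 0.920, 1.36, 7.81 and 1.15 RPM in fed and at 47.8, 96.8, 87.2 and 174 RPM in fasted mutants, a 36.1-fold rise. *Cyp28d1* rose by 2.75 and *Cyp310a1* fell by 3.28, against 2.69 and -3.66 in controls. Of 30 glutathione S-transferase genes 15 fell and 5 rose, with *GstE7* and *GstE3* lower by 2.33 and 2.28 and *GstT4* higher by 2.42.

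A small set of genes moved against the controls. Of the 127 genes called in both genotypes in opposite directions, 62 rose and 65 fell in mutants. The difference between the responses was called for every one, but opposite calls in the same fit make this nearly certain, so it adds no support. The 6 with the largest rise in mutants above the median level were *prc*, *Seipin*, *Obp83cd*, *scf*, *Ugt37c1* and *vanin-like*. *prc* encodes pericardin, a collagen-like protein of the matrix around the heart, and lies on chromosome arm 3L at 11958872 to 11966131. It was at 83.3, 72.2, 91.7 and 66.7 RPM in fed and at 305, 286, 308 and 332 RPM in fasted mutants. The groups were widely separated, and it rose by 1.97 ± 0.09 (limma adjusted p = 1.27e-09) in mutants and fell by 0.28 in controls, where fed libraries lay between 490 and 565 RPM. The collagen IV genes of the basement membrane moved the same way, *vkg* by 0.45 against -0.54 in controls and *Cg25C* by 0.46 against -0.47, with differences of 0.99 and 0.92. Both were lower in fed mutants than in fed controls, with a difference of -1.29 for each. *vanin-like*, of the pantetheinase family, went from 65.4, 82.7, 97.5 and 78.6 RPM to 110, 209, 203 and 162 RPM. It rose by 1.04 in mutants and fell by 3.06 in controls, a difference of 4.10. *Obp83cd* (odorant-binding protein family), *scf* (an endoplasmic reticulum calcium-binding protein) and *Ugt37c1* (a glycosyltransferase) rose by 1.22, 1.19 and 1.06. The 6 with the largest fall in mutants above the median level, which leaves out *FASN3*, were the P450 gene *Cyp4d8*, the zona pellucida domain gene *zye*, *CG5770*, *CG6426*, *CG9903* and the maltase gene *Mal-A5*. *Cyp4d8* fell from 84.2 ± 7.21 to 41.0 ± 5.30 RPM and *zye* from 179 ± 28.4 to 89.4 ± 13.0 RPM, and the falls of the 6 ran from -1.02 to -0.74 against rises of 0.39 to 1.07 in controls. For *prc*, *Obp83cd*, *scf*, *Ugt37c1*, *vanin-like* and *Seipin* the fed mutants differed from fed controls by -2.71 to -0.48, and for the 6 that fell by 0.51 to 1.59. The -0.48 of *Seipin* was not called (limma adjusted p = 0.0897).

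**Figure D5:**
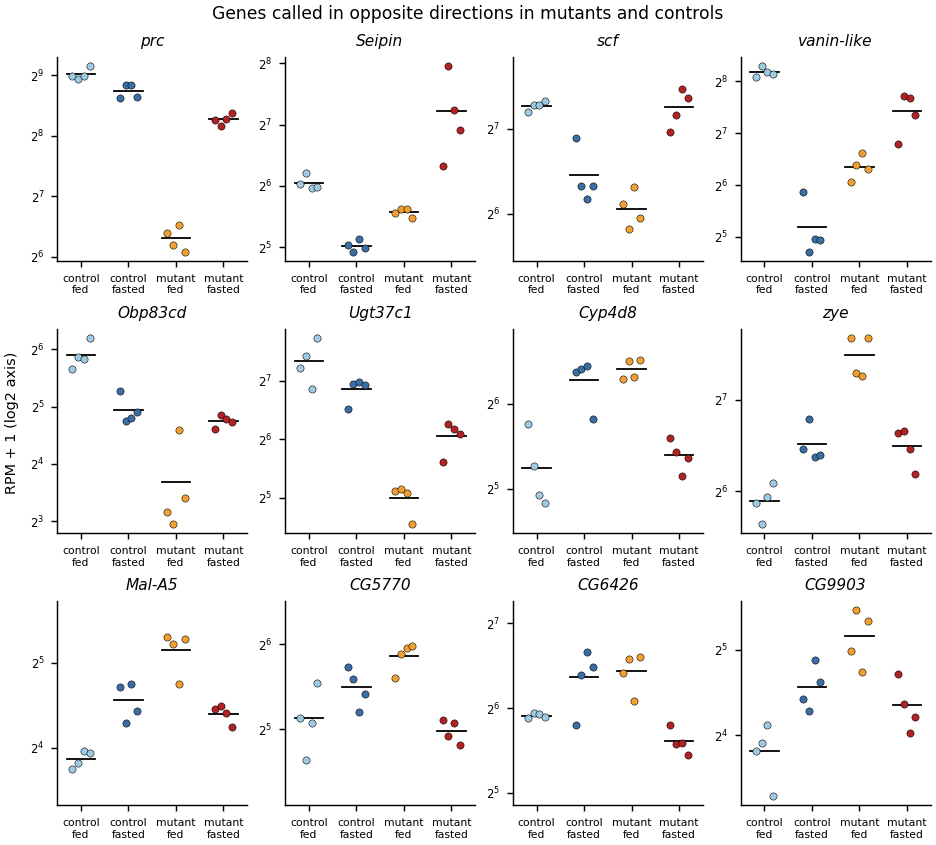
Levels in the 4 groups of 12 genes above the median level that changed oppositely in controls, the 6 highest rises and the 6 deepest falls of the mutants, on a log2 axis of RPM plus 1, with 1 point a library and a line at the mean of 4. In mutants *prc*, *Seipin*, *scf*, *vanin-like*, *Obp83cd* and *Ugt37c1* rose on fasting and the other 6 fell, while the controls moved the opposite way.

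Cell type markers were read from whole larvae, in which fewer cells of a type and less RNA per cell cannot be told apart. Of 13 fat body markers 6 rose and 6 fell in mutants, 46.15% each, against 23.7% and 25% over all genes. Of 12 neuron markers 8 rose and none fell, with *nSyb*, a synaptic vesicle gene, higher by 0.59, and their sum was 211 to 224 RPM in fed and 250 to 263 RPM in fasted mutants. Of 20 muscle markers 4 fell and none rose, among them *Mlp60A* (-0.90) and *bt* (-0.65), but 4 of the 20 were called higher without fed replicate 1 and 1 without fasted replicate 4, and *bt* lost its call with quantile-normalized libraries (-0.23, adjusted p = 0.239). Of 12 gut markers 4 rose and 4 fell, 33.33% each. Of 13 hemocyte markers 4 rose and 4 fell, 30.77% each, with a median of 0.11, and only 1 fell with an adjusted limma p under 0.01. The 4 that fell included the crystal cell genes *PPO1* (-0.55) and *PPO2* (-0.35), and the fed and fasted values of *PPO2* overlapped. Of 28 testis markers 1 fell, *bol* (-0.38, with an overlapping gene on its strand), and none rose, although 8 were called higher in a fit to the 8 mutant libraries alone. Their sum was 204 to 274 RPM in fed and 195 to 275 RPM in fasted mutants, against 74.2 to 122 RPM in fed and 84.9 to 209 RPM in fasted controls. The part of these markers in the results above was not tested.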

How the data were processed

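The 16 libraries (4 per group) were oligo(dT)-primed RNA-seq libraries. Per the submitters' processing notes and the study's methods, reads were trimmed with Trimmomatic, aligned to the FlyBase genome with TopHat2 2.1.0, counted by gene in a strand-specific manner with HTSeq 2.7.6, and analysed with limma. The authors deposited a table of normalized signal per gene, which are read counts divided by an effective library size (RPM), together with log2 fold changes and p-values of their own comparisons, which the authors deposited beside it and which were not used. Every value was a whole number of reads at the step size of its library (100% of values within 0.001), so that depths and read counts could be recovered.

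Group means of log2(value + 1) were fitted over all 16 libraries with limma 3.58.1 in R 4.3.3, and fasting contrasts and their difference were called at a Benjamini-Hochberg adjusted p under 0.05 over 10459 genes. The scripts were tested on simulated data. Alternatives were edgeR 4.0.16, DESeq2 1.42.0 and limma-voom on recovered reads, other scalings, filters, thresholds and pseudocounts, the replicate number as a block, and each library left out. Named genes were the 12 largest rises and falls above the median level without overlap of groups, genes the study names for these data, the 6 largest changes in each direction opposite to controls, and list members. The comparison, the lists and the named genes were chosen with earlier results of these data known. Genes were matched by identifier to an Ensembl annotation of the release 6 assembly (10305 genes), which is later than the authors' annotation, and its positions are printed. Replicates differed by more than counting noise in every group.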

Additional observations from a re-analysis of the deposited data

Results flagged for a closer look

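For the genes whose values are given library by library, 74 groups of 4 mutant libraries were examined. In 10 of these, 1 library stood apart from the other 3. The genes share the same libraries and were chosen with earlier results known, so this count cannot be set against a chance rate. Replicate 3 was high for *AttC* (198 RPM fed and 1040 RPM fasted), for *Dpt* (111 RPM fed and 535 RPM fasted) and, when fed, for *Cyp4e3* (7.81 RPM), and low for *Erk7* when fasted (5.14 RPM). Fed replicate 4 was high for *whd* (42.5 RPM) and *Ilp6* (14.8 RPM), fasted replicate 4 was low for *Drs* (455 RPM), and fasted replicate 2 was high for *bmm* (190 RPM).

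The interaction of genotype and feeding is given for 57 named genes, in each of which it passed its threshold in limma, while other named genes that passed it are given only by their counts. Differences are mutant minus control on the log2 scale. Among lipid and sugar genes they were -5.70 for *FASN3*, -3.46 for *CG6277*, -2.47 for *CG6271*, -2.12 for *CG10924*, -1.77 for *bmm*, -1.65 for *tobi*, -1.46 for *mag*, -1.42 for *Mal-A5* and -0.61 for *whd*. On the positive side they were 2.57 for *Seipin*, 2.49 for *Lsd-1*, 2.32 for *CG4830*, 1.79 for *sug*, 1.66 for *Hex-C*, 1.5 for *Pgd*, 1.45 for *Acox57D-d*, 0.82 for *ATPCL* and 0.64 for *Zw*. Among nutrient-signaling genes they were -1.96 for *Ilp6*, -1.92 for *Thor*, -1.63 for *CG6770*, -1.25 for *InR*, -1.21 for *REPTOR*, -0.62 for *Ilp3* and 1.48 for *srl*. Among genes of growth and protein handling they were 2.09 for *Hsp83*, 1.75 for *Fib*, 1.64 for *Hsc70-3*, 1.31 for *nclb* and 1.13 for *PCNA*. Amino acid genes gave -1.38 for *hgo*, 1.23 for *CG11899*, 1.09 for *CG6287* and 0.85 for *Cbs*. Matrix, cuticle and serum genes gave 5.72 for *Lsp1beta*, 2.25 for *prc*, 2.01 for *Cpr76Bb*, 1.30 for *Twdlalpha*, 0.99 for *vkg*, 0.92 for *Cg25C*, -1.31 for *Cpr78Cc* and -1.61 for *zye*. Immune genes gave 2.35 for *Drs*, 2.2 for *SPE* and 1.10 for *Glt*. The others were 4.10 for *vanin-like*, 3.68 for *CG43153*, 2.17 for *Obp83cd*, 2.03 for *scf*, 1.52 for *Ugt37c1*, 1.5 for *qless*, -2.70 for *Eip74EF*, -2.09 for *Cyp4d8*, -1.56 for *CG9903*, -1.26 for *CG5770*, -1.24 for *CG6426* and -1.07 for *GstD3*.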

How the results depend on the processing

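The counts of genes that rose and fell in mutants stayed within 1.5 times of 2477 and 2616 with edgeR (2502 and 2592), DESeq2 (2470 and 2588), limma-voom (2439 and 2609), every scaling and every library left out (2259 to 2376 and 2302 to 2501 without 1 mutant library). With an adjusted p under 0.01, 1881 rose and 1964 fell, while the genes with a higher response in mutants dropped from 1903 to 1264 and those with a lower one from 1435 to 614. With a change over 0.5 also required 1221 rose, 1234 fell and 1179 had a higher response in mutants. The share of control calls also called in mutants, 50.03% of rises and 63.44% of falls, moved as well. For genes that rose it was 62.75% without genes of low level, 59.56% with quantile normalization, 48.42% with median-centred libraries, 56.17% with each genotype fitted alone, 48.43% with DESeq2, 53.89% with limma-voom and 36.6% with a change over 0.5. For genes that fell it was 65.2% without genes of low level, 61.38% with each genotype fitted alone, 56.25% with an adjusted p under 0.01 and 44.99% with a change over 0.5. With single libraries left out it ran from 47.2 to 57.21% and from 56.69 to 64.42%. The direction turned for uncalled values of *CG34448* (-0.01 with quantile normalization, -0.01 to 0.09 with libraries left out) and *Dpt* (-0.73 to 2.26), and for *Rfabg* (0.16 with quantile normalization). Levels under a few reads, at about 0.05 RPM a read, limit what can be said of the fed level of *Drs*, *IM1* and *IM14*.

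Over all genes, the deviations of same-numbered fed and fasted mutant libraries had correlations from -0.11 to 0.15. Those of same-numbered control libraries ran from -0.32 to 0.29. Replicate 3 was nevertheless high for *AttC* and *Dpt* in both feeding states of the mutants. The labels do not say whether a replicate number marks a shared batch. With the replicate block 2484 genes rose and 2597 fell, 1876 had a higher and 1365 a lower response in mutants, and the share of control rises seen in mutants was 51.68%.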

Other observations

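Among genes that rose in fasted mutants without a call in controls, those with the largest rises above the median level, singled out after their values were seen, included *SPE*, the protease that processes the Toll ligand Spätzle. It went from 16.8 ± 1.59 to 93.7 ± 16.1 RPM (2.40 ± 0.16 SE), with 0.20 in controls. Its level in fed mutants differed from that in fed controls by -0.72, and its count is uncertain because an annotated gene overlaps it on its strand. *qless*, a prenyltransferase of ubiquinone synthesis, rose by 1.37 and *Glt*, glutactin of the basement membrane, by 1.09. The cuticle gene *Cpr78Cc* (-1.46) and the glutathione S-transferase gene *GstD3* (-1.13) fell in mutants and were not called in controls (-0.15 and -0.06).

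Of 39 measured genes of lysosomes and the proton pump 10 rose (25.64%) and 12 fell (30.77%), near the 23.7% and 25% over all genes, with the cathepsin gene *Cp1* higher by 1.64 and *Lerp*, the receptor that sorts lysosomal enzymes, by 1.27. Of 29 chitin and peritrophic matrix genes 11 rose (37.93%) and 10 fell (34.48%), with *Idgf1*, an imaginal disc growth factor, higher by 1.46 and *obst-A*, a chitin-binding protein of the cuticle, lower by 1.8. Of 29 glycosyltransferase genes of the UGT family 9 rose (31.03%) and 10 fell (34.48%), from *Ugt35b* (-2.43) to *Ugt86Dc* (1.57).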
